A study of Mus musculus with 12 samples.

Results

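The genes described here are the 8 subunit genes of the cytosolic chaperonin (Tcp1, Cct2, Cct3, Cct4, Cct5, Cct6a, Cct7 and Cct8) and 2 heat shock genes, Hspa8 and Hsp90ab1. They are defined by gene name, and all 10 symbols were found once among the 29879 gene identifiers of the count files. The chaperonin, called TRiC or CCT, is a barrel of stacked rings in which each subunit has a fixed place. It encloses newly made proteins while they fold, and actins and tubulins depend on it. Hspa8 encodes Hsc70, a constitutive Hsp70 that holds unfolded chains, hands some of them on to the chaperonin or to Hsp90, and strips clathrin coats from vesicles at nerve terminals. Hsp90ab1 encodes Hsp90 beta, the constitutive form of cytosolic Hsp90, which completes the folding of kinases and nuclear receptors. Neurons make large amounts of tubulin and actin for axons, dendrites and spines.

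RNA was sequenced from the cortex of mice of the SNAP25 BacTRAP line at postnatal day 21, in 4 groups of 3 libraries. In such a line, ribosomes that carry enhanced green fluorescent protein (eGFP) can be pulled down, by immunoprecipitation (IP), from the cells in which the promoter of the transgene is active, and Snap25 is a gene of neurons in general rather than of a single neuron type. SynapTRAP is the pull-down of eGFP ribosomes from the SN band of a sucrose and percoll gradient, TRAP is the pull-down from cortex, SNF is the SN band with no pull-down, and WCH is the cortex RNA that served as control. All 4 groups, WCH included, come from the transgenic line, and the labels do not say whether replicates are separate animals or pools, so the p-values below measure only the spread between samples, which may be technical. A pull-down from mice without the transgene is not analysed here.

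Each library gave 4368881 to 14335089 gene counts, of which 1819853 to 7115176 lay outside the mitochondrial genome. Mitochondrial RNA took 20.4% to 63.3% of gene counts in SynapTRAP, 0.93% to 5.43% in TRAP, 82.2% to 87.3% in SNF and 33.6% to 50.9% in WCH, so SNF was the shallowest group for nuclear genes. The members other than Hsp90ab1 rested on 35 to 216 counts in SNF libraries. Levels are given as CPM, counts scaled to a common library size, after trimmed mean of M-values (TMM) scaling. Unless another fit is named, log2 fold changes and adjusted p come from edgeR's quasi-likelihood test over all 12 libraries and 13404 tested genes. The adjustment is that of Benjamini and Hochberg. edgeR gives no standard error (SE) in this test. The SE was derived as the absolute log2 fold change divided by the square root of the F statistic of the test. A gene was called, and is said to have risen or fallen, at an adjusted p under 0.05. All 10 members passed the filter on low counts.

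Of the 12 libraries, 3 stood apart in the summed levels of cell type markers. SynapTRAP replicate 3 had the highest mitochondrial share of its group (63.3%), the highest summed level of 12 oligodendrocyte markers (21942 CPM, against 10222 and 9064 CPM in replicates 1 and 2), and the lowest level in its group of all 10 members. TRAP replicate 2 had the lowest summed level of 15 neuron markers (11302 CPM, against 17129 and 19897 CPM in replicates 1 and 3), the highest summed level of 10 endothelial markers (42.7 CPM, against 6.39 and 7.11 CPM), 58.3% of its reads counted for no gene, and the lowest level in its group of 7 of the 10 members. TRAP replicate 3 had the highest oligodendrocyte sum of its group (7138 CPM, against 2266 and 551 CPM in replicates 1 and 2). It had the highest level in its group of 5 of the 10 members, as TRAP replicate 1 also had for 5. Of the WCH libraries, replicate 3 had the highest mitochondrial share (50.9%, against 33.6% and 37.0% in replicates 1 and 2). It also had the highest level in its group of 7 of the 10 members. The oligodendrocyte sums were 7655 to 10153 CPM in SNF and 2869 to 3644 CPM in WCH. Over the groups, the summed neuron markers were 15180 to 16331 CPM in SynapTRAP, 11302 to 19897 CPM in TRAP, 12107 to 13494 CPM in SNF and 12192 to 13526 CPM in WCH. The summed 12 astrocyte markers were 9518 to 16361 CPM in SynapTRAP, 612 to 1415 CPM in TRAP, 14069 to 19237 CPM in SNF and 2305 to 2880 CPM in WCH. The summed 12 microglia markers were 207 to 447 CPM in SynapTRAP, 29.0 to 58.0 CPM in TRAP, 334 to 679 CPM in SNF and 86.2 to 107 CPM in WCH. No marker of these lists was at 0 in every library of a group.

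The members lie on 9 chromosomes of GRCm38, and counts cover the exons of the whole gene. Tcp1 (alpha subunit) spans chr17:12915701-12925067 on the plus strand, Cct2 (beta) chr10:117051001-117063814 on the minus strand, and Cct3 (gamma) chr3:88297116-88321767 on the plus strand. Cct4 (delta) spans chr11:22990519-23003780 on the plus strand, Cct5 (epsilon) chr15:31590800-31601804 on the minus strand, and Cct6a (zeta) chr5:129786998-129846371 on the plus strand. Cct7 (eta) spans chr6:85451514-85468475 on the plus strand and Cct8 (theta) chr16:87483326-87495873 on the minus strand. Hspa8 spans chr9:40800984-40810087 on the plus strand, and Hsp90ab1 spans chr17:45567775-45573271 on the minus strand. GENCODE M21 lists each as protein coding except Cct6a, which it lists as a processed transcript and RefSeq as protein coding.

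Some members share sequence or position with other genes, and their values are uncertain to that degree. Of the 50-base windows of the spliced Hspa8 transcripts, 68.8% occur unchanged in another annotated gene, 12 of the 13 such genes being pseudogenes, so many Hspa8 reads have no unique place. The share was 18.6% for Tcp1, 16.8% for Cct6a, 7.98% for Cct7, 5.46% for Cct8, 4.13% for Hsp90ab1, 1.67% for Cct3 and 0.645% for Cct4, and no such window was found for Cct2 and Cct5. Exons of Tcp1 overlap Acat3 and Mrpl18, those of Cct6a overlap Psph, those of Cct7 overlap Pradc1 and those of Cct8 overlap Usp16. Reads counted as ambiguous were left out, so reads in overlapping exons may be missing from the counts of these members. The sources used here do not say whether counting used strand, so how many reads this concerns is not known. The genes that share windows had counts, per library, of 31.9% to 53.2% of those of Tcp1 (Acat2 and Acat3), 9.26% to 79.2% of those of Cct6a (Psph), 8.13% to 28.2% of those of Cct7 (Pradc1) and 11.3% to 64.0% of those of Cct8 (Usp16).

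Promoter sequences are shown for 3 subunits that rose in TRAP (Cct3, Cct5 and Cct7) and for 1 that was not called there (Cct8). RefSeq promoter windows on GRCm38.p6 (250 bases before to 50 bases after a start) were matched for 7 of the 10 members, in 9 windows. The 250 bases before the start are printed 5′ to 3′ on the strand of the gene. The regions are chr3:88296885-88297134 for Cct3 (plus strand), chr15:31601847-31602096 for Cct5 (minus strand, the upstream of 2 starts), chr6:85451255-85451504 for Cct7 (plus strand) and chr16:87495870-87496119 for Cct8 (minus strand). Capitals mark the motifs that were searched on both strands: CCAAT, which reads ATTGG where it lies on the opposite strand, and GAANNTTC and TTCNNGAA, which each join a pair of the units to which heat shock factors bind.
Cct3: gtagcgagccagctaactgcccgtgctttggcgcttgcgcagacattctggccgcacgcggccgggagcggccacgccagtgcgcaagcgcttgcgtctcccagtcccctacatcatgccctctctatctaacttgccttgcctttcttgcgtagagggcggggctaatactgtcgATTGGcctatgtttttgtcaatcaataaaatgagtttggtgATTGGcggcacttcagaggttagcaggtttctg
Cct5: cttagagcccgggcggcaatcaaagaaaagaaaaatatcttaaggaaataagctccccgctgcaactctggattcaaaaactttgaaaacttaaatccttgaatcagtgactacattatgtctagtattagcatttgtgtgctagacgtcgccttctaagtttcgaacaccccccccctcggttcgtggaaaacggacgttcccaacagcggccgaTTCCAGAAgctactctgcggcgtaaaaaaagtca
Cct7: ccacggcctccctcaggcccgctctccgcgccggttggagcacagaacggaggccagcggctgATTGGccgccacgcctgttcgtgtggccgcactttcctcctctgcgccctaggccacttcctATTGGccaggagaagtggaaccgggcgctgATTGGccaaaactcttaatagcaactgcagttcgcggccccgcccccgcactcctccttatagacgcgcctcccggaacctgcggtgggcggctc
Cct8: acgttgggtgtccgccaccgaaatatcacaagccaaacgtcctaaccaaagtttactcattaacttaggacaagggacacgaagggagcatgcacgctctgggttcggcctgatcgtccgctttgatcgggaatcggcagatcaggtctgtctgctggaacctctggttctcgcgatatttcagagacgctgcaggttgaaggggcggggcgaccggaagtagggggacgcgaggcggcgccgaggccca
The Cct3 promoter held 2 matches to CCAAT and the Cct7 promoter held 3. The Cct5 promoter held TTCNNGAA 34 to 27 bases before the start, and the printed Cct8 bases held none of these motifs. Among the windows not printed, CCAAT was found in Tcp1 and Cct6a, TTCNNGAA in Cct6a after the start, and GAANNTTC in the downstream window of Cct2. Of 32851 mouse promoter windows of the same length, 37.41% held CCAAT, 7.86% held GAANNTTC, 8.52% held TTCNNGAA, and 0.6027% held a heat shock element in which both shorter motifs overlap. That longer element was not found in the 9 windows. The matches are a description of letters and say nothing of binding.

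**Figure D1:**
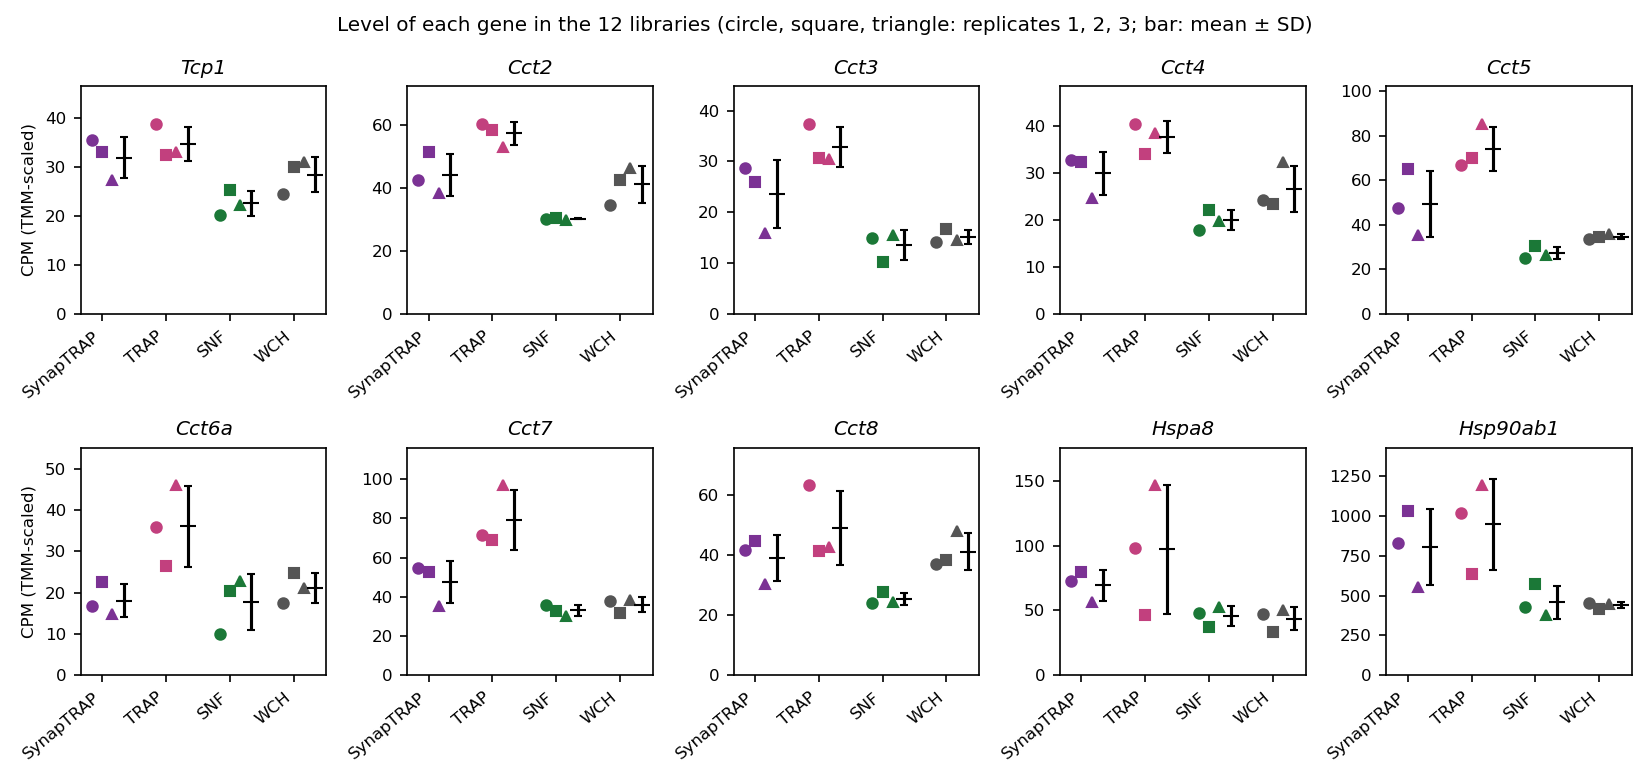
Level of each of the 10 genes in every library, as CPM after TMM scaling on a separate linear axis from 0 for each gene, with groups in the order SynapTRAP, TRAP, SNF and WCH; circles, squares and triangles are replicates 1, 2 and 3, and bars are means with SD (n = 3 each). TRAP has the highest mean for all 10 genes, from 32.8 CPM in Cct3 to 948 CPM in Hsp90ab1.

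Compared per length of exons in WCH, Hsp90ab1 stood far above the others at 146 ± 6.66 CPM per kilobase (SD, n = 3). Cct2 (16.1 ± 2.31), Cct8 (13.3 ± 1.98) and Cct5 (12.5 ± 0.421 CPM per kilobase) followed. The libraries of Cct8 overlapped those of both others, and those of Cct2 lay above those of Cct5. Hspa8 lay at 10.2 ± 2.11 CPM per kilobase, but 68.8% of its windows occur in other genes and reads without a unique place were left out. The Hspa8 level may thus be too low, and its place among the genes is uncertain. Cct4, Cct6a, Tcp1 and Cct7 lay between 5.30 and 6.33 CPM per kilobase with overlapping libraries, and Cct3 was lowest at 2.37 ± 0.218 CPM per kilobase. Divided by the longest protein-coding transcript instead, the subunits ran from 7.64 (Cct3) to 20.99 (Cct2) CPM per kilobase and Hsp90ab1 was at 174 CPM per kilobase, with no value for Cct6a, so the length used moves the levels between genes but not those between groups. The order of group means was TRAP, SynapTRAP, WCH, SNF from high to low for 6 of the 10 members. For Hspa8 and Hsp90ab1 it was TRAP, SynapTRAP, SNF, WCH, and for Cct6a and Cct8 it was TRAP, WCH, SynapTRAP, SNF.

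TRAP against WCH asks which cortical mRNAs are more abundant in the pull-down of eGFP ribosomes than in the tissue. In TRAP, 6 of the 10 members rose, 1.71-fold to 2.23-fold, 4 of them chaperonin subunits, and the background was 11.1% of all tested genes called higher. The 6 were Cct3, Cct5, Cct6a, Cct7, Hspa8 and Hsp90ab1, while Tcp1, Cct2, Cct4 and Cct8 were not called. No member had a lower mean in TRAP, and the libraries did not overlap, all TRAP libraries being higher, for 8 of 10 members against 20.6% of tested genes. The median log2 fold change was 0.64 over the 8 subunits and -0.01 over all tested genes.

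Cct7 had 71.4, 69.2 and 96.9 CPM in TRAP replicates 1 to 3, against 37.9, 31.6 and 38.3 CPM in WCH, a log2 fold change of 1.14 (SE 0.22, adjusted p 0.00139). Cct5, the subunit whose mutation in humans causes a sensory neuropathy, had 66.8, 70.2 and 85.3 CPM in TRAP, against 33.6, 34.3 and 35.8 CPM in WCH (log2 fold change 1.1001, SE 0.23, adjusted p 0.00196). For both subunits the lowest TRAP library lay well above the highest WCH library. Cct3 had 37.4, 30.7 and 30.4 CPM in TRAP, against 14.1, 16.7 and 14.5 CPM in WCH (log2 fold change 1.12, SE 0.25, adjusted p 0.00316). Cct6a had 36.0, 26.4 and 46.0 CPM in TRAP, against 17.4, 24.7 and 21.1 CPM in WCH (log2 fold change 0.77, SE 0.28, adjusted p 0.0467). The lowest TRAP library of Cct6a stood just above the highest WCH library, and its call held in only 1 of the 6 fits that left out a library of these groups (log2 fold change 0.60 to 0.99), the one without TRAP replicate 2.

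Hsp90ab1 had 1019, 632 and 1191 CPM in TRAP, against 456, 417 and 444 CPM in WCH, a log2 fold change of 1.11 (SE 0.28, adjusted p 0.00698). Hspa8 had 98.0, 46.8 and 147 CPM in TRAP, against 46.9, 33.5 and 50.7 CPM in WCH (log2 fold change 1.15, SE 0.30, adjusted p 0.00894). TRAP replicate 2 was the low library for both heat shock genes, and for Hspa8 it lay within the range of WCH. Reads without a unique place were 28.9% in TRAP replicate 2, 21.5% and 21.4% in replicates 1 and 3, and 16.5% to 17.0% in WCH. How many of them came from Hspa8 was not measured, so its fold changes between groups are uncertain too. The Hspa8 call was lost without TRAP replicate 3 (log2 fold change 0.77) or without WCH replicate 2 (0.99).

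The 4 subunits that were not called also had positive values, and 3 of them had separate libraries. Cct4, whose mutation in rats causes a sensory neuropathy, had 40.4, 33.9 and 38.5 CPM in TRAP, against 24.2, 23.4 and 32.2 CPM in WCH (log2 fold change 0.50, SE 0.22, adjusted p 0.1). Cct2 had 60.3, 58.5 and 53.0 CPM in TRAP, against 34.7, 42.5 and 46.2 CPM in WCH (log2 fold change 0.48, SE 0.20, adjusted p 0.0954). Both had TRAP libraries above all WCH libraries by margins smaller than those of Cct3, Cct5 and Cct7. Tcp1, the founding member of the family, had 38.7, 32.3 and 32.98 CPM in TRAP, against 24.4, 29.9 and 30.9 CPM in WCH (log2 fold change 0.29, SE 0.21, adjusted p 0.344). Cct8 had 63.1, 41.1 and 42.6 CPM in TRAP, against 36.8, 38.2 and 48.0 CPM in WCH (log2 fold change 0.26, SE 0.23, adjusted p 0.445), and its groups overlapped. The SD of the log2 fold change between the 8 subunits was 0.38; a difference between subunits was not tested. In the same comparison 7 of 15 neuron markers rose, while astrocyte (8 of 12), oligodendrocyte (8 of 12) and microglia (4 of 12) markers fell. The lowest of the neuron markers had a log2 fold change of -2.80 and was not called by edgeR. For the neuron markers DESeq2 called 8 of 15 higher and 1 lower. The oligodendrocyte marker Mbp had a log2 fold change of 2.37 (adjusted p 0.147) and DESeq2 called 1 of 12 higher; the summed level of TRAP replicate 3 was above that of every WCH library. The part of these cell types in the values of the members was not tested, and fewer cells of a type cannot be told apart from less RNA per cell.

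**Figure D2:**
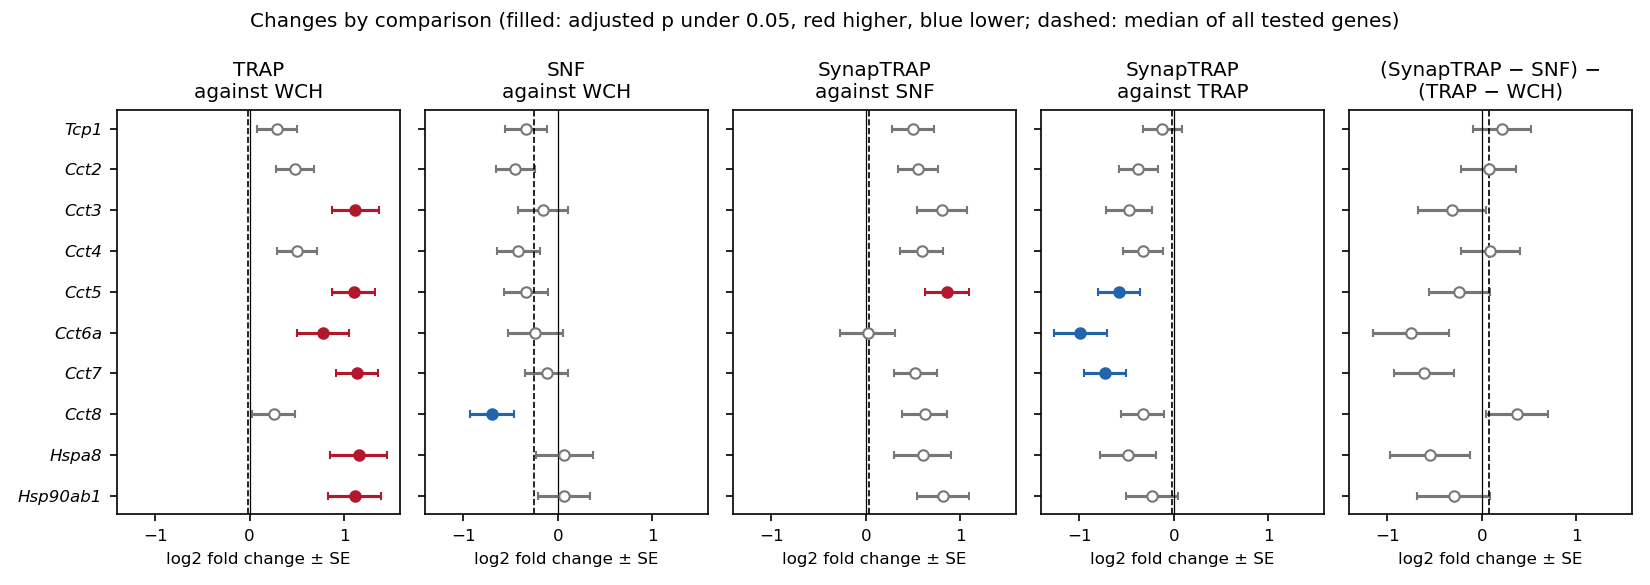
Log2 fold change of each of the 10 genes, with its standard error, in the 4 comparisons between groups and in the difference between both pull-down effects; filled symbols mark an adjusted p under 0.05 (red higher, blue lower) and the dashed line marks the median of all tested genes. TRAP against WCH has 6 called genes, all higher, SynapTRAP against TRAP has 3, all lower, and SNF against WCH (Cct8, lower) and SynapTRAP against SNF (Cct5, higher) have 1 each; with RLE scaling or DESeq2 the signs of Cct7 in SNF against WCH, Cct6a in SynapTRAP against SNF, and Cct2 and Cct4 in the difference turn.

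SNF against WCH asks how the RNA of the gradient band differs from that of the tissue. Only Cct8 passed the test, and it fell, where 16.5% of all tested genes were called lower. It had 23.9, 27.7 and 24.3 CPM in SNF, against 36.8, 38.2 and 48.0 CPM in WCH (log2 fold change -0.70, SE 0.24, adjusted p 0.0248), with no overlap between groups. The call was lost with RLE scaling (-0.57), with DESeq2, and in 4 of the 6 fits that left out a library: without WCH replicate 1 (-0.66) or 3 (-0.57) and without SNF replicate 1 (-0.66) or 3 (-0.67).

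The other subunits had log2 fold changes of -0.45 to -0.12 in SNF against WCH. For 4 of 10 members, Cct2, Cct4, Cct5 and Cct8, every SNF library lay below every WCH library, against 33.6% of tested genes, and 2 of 10 had an unadjusted p under 0.05, against 46.9% of tested genes. Cct2 had 30.2, 30.3 and 29.9 CPM in SNF, against 34.7, 42.5 and 46.2 CPM in WCH (log2 fold change -0.45, SE 0.21, adjusted p 0.099). Cct5 had 25.0, 30.3 and 26.5 CPM in SNF, against 33.6, 34.3 and 35.8 CPM in WCH (log2 fold change -0.34, SE 0.23, adjusted p 0.255). The SNF libraries of Cct2 were nearly level with each other, whereas those of Cct5 spread over several CPM. Cct4 had 17.8, 22.1 and 19.7 CPM in SNF, against 24.2, 23.4 and 32.2 CPM in WCH (log2 fold change -0.42, SE 0.23, adjusted p 0.152). Tcp1 (-0.33), Cct6a (-0.24), Cct3 (-0.16) and Cct7 (-0.12) had overlapping libraries, with adjusted p of 0.235 to 0.704. The subunit median of -0.34 stood beside a median of -0.25 over all tested genes, that is -0.09 relative to it.

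The 2 heat shock genes did not share the sign of the subunits. Hspa8 had 47.8, 37.0 and 52.5 CPM in SNF, against 46.9, 33.5 and 50.7 CPM in WCH, a log2 fold change of 0.07 (SE 0.30, adjusted p 0.876). Hsp90ab1 had 426, 574 and 375 CPM in SNF, against 456, 417 and 444 CPM in WCH (log2 fold change 0.06, SE 0.27, adjusted p 0.872). Both groups overlapped for each, and with total gene counts as the library size both values turned to -2.28, where the median of all tested genes was -2.60. Markers of astrocytes (11 of 12), oligodendrocytes (8 of 12) and microglia (12 of 12) rose in the same comparison. Of 15 neuron markers 4 rose and 3 fell. The part of these markers in the values of the members was not tested.

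SynapTRAP against SNF asks which mRNAs are more abundant in the pull-down of eGFP ribosomes from the gradient band than in the band itself. A gene that is not called may still be on these ribosomes. A single subunit, Cct5, rose, where 2.29% of all tested genes were called higher. It had 47.4, 65.1 and 35.5 CPM in SynapTRAP, against 25.0, 30.3 and 26.5 CPM in SNF (log2 fold change 0.86, SE 0.23, adjusted p 0.039). Every SynapTRAP library was higher, but the call held in 1 of the 6 fits that left out a library, the one without SynapTRAP replicate 3. Its value was 0.61 to 1.05 over those fits. The call was also lost with RLE scaling (0.75, adjusted p 0.0772) and with a fit of only the compared groups (0.80, adjusted p 0.118). In the same comparison 2 of 15 neuron markers rose, and 3 of 12 oligodendrocyte and 1 of 12 microglia markers fell. DESeq2 called 5 of 12 oligodendrocyte markers lower. The highest value among the oligodendrocyte markers was 2.34, which was not called. Their summed level was not lower in SynapTRAP, at 9064 to 21942 CPM against 7655 to 10153 CPM in SNF. Of the astrocyte markers edgeR called 0 of 12, with 6 at an unadjusted p under 0.05, and DESeq2 called 2 lower. The part of these markers in the values of the members was not tested.

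All 10 members had a positive log2 fold change in SynapTRAP against SNF (Cct6a at 0.02, turning to -0.08 with RLE scaling), and 8 of 10 had an unadjusted p under 0.05, against 19.6% of tested genes. For 7 of 10 members every SynapTRAP library lay above every SNF library, against 12.4% of tested genes. The subunit median was 0.57, beside 0.03 over all tested genes. Cct3 had 28.8, 25.9 and 15.9 CPM in SynapTRAP, against 14.96, 10.1 and 15.6 CPM in SNF (log2 fold change 0.80, SE 0.26, adjusted p 0.0823). Hsp90ab1 had 828, 1034 and 556 CPM in SynapTRAP, against 426, 574 and 375 CPM in SNF (log2 fold change 0.81, SE 0.28, adjusted p 0.0997). SynapTRAP replicate 3 was the low library of its group in both genes and lay just above the SNF range in Cct3 and inside it in Hsp90ab1. Compared by replicate number, whose meaning the labels do not give, the SynapTRAP library of Hsp90ab1 was higher in 3 of 3 pairs. The same held for every other member except Cct6a, with 2 of 3. SynapTRAP replicate 3 also had the high mitochondrial share and oligodendrocyte sum. Without it 3 members were called higher: Cct3 (log2 fold change 1.02, adjusted p 0.022), Cct5 (1.05, adjusted p 0.0117) and Hsp90ab1 (1.03, adjusted p 0.0274).

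Hspa8 had 72.7, 79.4 and 56.2 CPM in SynapTRAP, against 47.8, 37.0 and 52.5 CPM in SNF (log2 fold change 0.60, SE 0.30, adjusted p 0.279). Cct8 had 41.7, 44.7 and 30.2 CPM in SynapTRAP, against 23.9, 27.7 and 24.3 CPM in SNF (log2 fold change 0.62, SE 0.24, adjusted p 0.142). The groups were separate for both genes, and neither was called. Cct2, Cct4, Cct7 and Tcp1 had log2 fold changes of 0.50 to 0.59, with adjusted p of 0.148 to 0.204. Cct6a had 16.8, 22.5 and 14.9 CPM in SynapTRAP, against 10.1, 20.5 and 22.9 CPM in SNF, and these values overlapped widely.

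SynapTRAP against TRAP sets the pull-down from the band beside the pull-down from cortex. In SynapTRAP, 3 of the 10 members fell, Cct5, Cct6a and Cct7, where 18.1% of all tested genes were called lower. All 10 members had a negative log2 fold change, and for 6 of 10 every SynapTRAP library lay below every TRAP library, against 21.4% of tested genes. The subunit median was -0.42, beside -0.02 over all tested genes, and the 6 were Cct2 to Cct7. Without SynapTRAP replicate 3 the subunit median was -0.28, beside -0.10 over all tested genes, which is -0.18 relative to it, against -0.40 with all libraries, and the members no longer lay all on one side of the median of all genes.

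Cct6a had 16.8, 22.5 and 14.9 CPM in SynapTRAP, against 36.0, 26.4 and 46.0 CPM in TRAP (log2 fold change -0.99, SE 0.28, adjusted p 0.00728). Cct7 had 54.8, 52.6 and 35.2 CPM in SynapTRAP, against 71.4, 69.2 and 96.9 CPM in TRAP (log2 fold change -0.73, SE 0.22, adjusted p 0.0119). Both were called in all 6 fits that left out a library of these groups, but with a fit of only the compared groups the call of Cct7 was lost (-0.68, adjusted p 0.0732). Cct5 had 47.4, 65.1 and 35.5 CPM in SynapTRAP, against 66.8, 70.2 and 85.3 CPM in TRAP (log2 fold change -0.58, SE 0.22, adjusted p 0.0419). Its call was lost without SynapTRAP replicate 1 (-0.58) or 3 (-0.40), without TRAP replicate 3 (-0.51), with only the compared groups (-0.53, adjusted p 0.166) and with no filter on low counts (-0.59, adjusted p 0.0565). Cct2 (-0.38), Cct3 (-0.47) and Cct4 (-0.33) had separate groups but adjusted p of 0.129 to 0.241.

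Hspa8 had 72.7, 79.4 and 56.2 CPM in SynapTRAP, against 98.0, 46.8 and 147 CPM in TRAP (log2 fold change -0.48, SE 0.30, adjusted p 0.202). Its groups overlapped through TRAP replicate 2, and without that library it fell (-0.86, adjusted p 0.0138). Cct8 had 41.7, 44.7 and 30.2 CPM in SynapTRAP, against 63.1, 41.1 and 42.6 CPM in TRAP, also with overlap (log2 fold change -0.33, SE 0.23, adjusted p 0.261). Hsp90ab1 had 828, 1034 and 556 CPM in SynapTRAP, against 1019, 632 and 1191 CPM in TRAP, with overlap (log2 fold change -0.23, SE 0.27, adjusted p 0.526). Tcp1 had 35.4, 32.9 and 27.3 CPM in SynapTRAP, against 38.7, 32.3 and 32.98 CPM in TRAP, with the value of the subunits nearest to 0 (log2 fold change -0.12, SE 0.21, adjusted p 0.682). Markers of astrocytes (12 of 12), oligodendrocytes (10 of 12) and microglia (12 of 12) rose in SynapTRAP against TRAP. Of 15 neuron markers 4 rose and 5 fell. The part of these markers in the values of the members was not tested.

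TRAP against WCH and SNF against WCH share the WCH libraries, and the SynapTRAP comparisons share the SynapTRAP libraries, so their values are not independent. The difference between both pull-down effects (the SynapTRAP against SNF value less the TRAP against WCH value) was tested as a contrast of its own. By edgeR 0 of 10 members passed, where 0.865% of all tested genes did. There were also 0 of 10 at an unadjusted p under 0.05, against 17.3% of tested genes, and DESeq2 called 0 of 10. The lowest values were those of Cct6a at -0.75 (SE 0.40, adjusted p 0.342) and Cct7 at -0.61 (SE 0.32, adjusted p 0.327), and the highest was that of Cct8 at 0.37 (SE 0.33, adjusted p 0.592). Between them lay Hspa8 (-0.55), Cct3 (-0.31), Hsp90ab1 (-0.30), Cct5 (-0.24), Cct2 (0.071), Cct4 (0.090) and Tcp1 (0.21), with adjusted p of 0.522 to 0.926. With standard errors of 0.29 to 0.42, even the values of Cct6a and Cct7 had an unadjusted p above 0.05 by edgeR. At this depth and number of libraries the test can thus miss differences well above a standard error.

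The composition of the 8 subunits, taken as each subunit's share of their summed CPM per kilobase within a library, does not depend on the scaling of libraries. The shares of a library add up to a fixed total, so larger shares of some subunits lower those of others. The size of each share also depends on the exon length used. Cct5 made up 24.9% ± 2.96 of the sum in TRAP, against 18.6% ± 1.24 in WCH (SD, n = 3 each). Cct7 made up 10.8% ± 1.67 in TRAP, against 7.93% ± 1.14 in WCH, and Cct3 made up 4.79% ± 0.518 in TRAP, against 3.54% ± 0.431 in WCH. For these 3 subunits the TRAP shares were all above the WCH shares. Cct8 made up 14.7% ± 3.18 in TRAP, against 19.7% ± 1.25 in WCH, and Tcp1 made up 6.41% ± 0.55 in TRAP, against 8.38% ± 0.462 in WCH, and for both the TRAP shares were all below the WCH shares. The levels of Cct8 and Tcp1 themselves had positive log2 fold changes in TRAP against WCH (0.26 and 0.29), neither of them called. The shares of Cct2, Cct4 and Cct6a overlapped between TRAP and WCH.

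In the band, Cct5 was the subunit with separate shares, at 22.9% ± 2.71 in SynapTRAP, against 19.3% ± 0.829 in SNF. Between the pull-downs, Cct6a made up 6.51% ± 0.564 in SynapTRAP, against 9.18% ± 1.95 in TRAP, and Tcp1 made up 8.35% ± 0.952 in SynapTRAP, against 6.41% ± 0.55 in TRAP, both without overlap. With 3 libraries against 3, the smallest p that an exact permutation test can give is 0.1, and none was made for the shares.

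**Figure D3:**
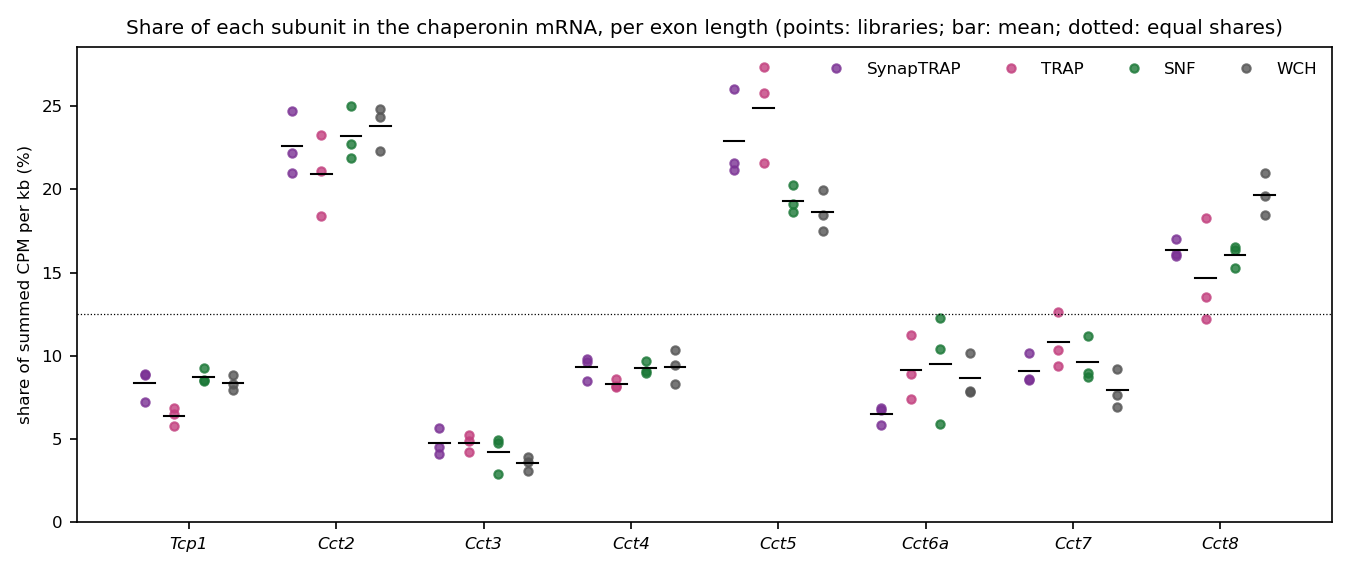
Share of each chaperonin subunit in the summed CPM per kilobase of exon of the 8 subunits, in percent, by library (points) with the mean of each group as a bar (n = 3 each), groups in the order SynapTRAP, TRAP, SNF and WCH, and a dotted line at equal shares. Cct5 averages 24.9% in TRAP and 18.6% in WCH, while Cct8 averages 14.7% in TRAP and 19.7% in WCH.

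Summed over the 8 subunits, the level was 283 ± 54.7 CPM in SynapTRAP, 401 ± 33.7 CPM in TRAP, 190 ± 10.7 CPM in SNF and 244 ± 22.1 CPM in WCH (SD, n = 3 each). The ratio of Hsp90ab1 to that sum, also free of library scaling, was 2.81 ± 0.329 in SynapTRAP, 2.34 ± 0.538 in TRAP, 2.41 ± 0.463 in SNF and 1.81 ± 0.204 in WCH. In SynapTRAP all 3 ratios (2.76, 3.16 and 2.51) were above those of WCH (2.04, 1.73 and 1.66), whereas the TRAP and SNF ratios overlapped them. The ratio of Hspa8 to the sum was 0.246 ± 0.00614 in SynapTRAP, 0.237 ± 0.108 in TRAP, 0.243 ± 0.0496 in SNF and 0.18 ± 0.037 in WCH. The Hspa8 reads lost to shared sequence were not measured, so the size of this ratio may be too low.

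Across the 12 libraries the log2 levels of the subunits moved together. Over the 28 pairs of subunits Pearson's r ran from 0.573 to 0.942 with a median of 0.82. Hspa8 and Hsp90ab1 had an r of 0.845 with each other, and 0.510 to 0.817 (Hspa8) and 0.582 to 0.883 (Hsp90ab1) with the subunits. The genes outside the set whose log2 level was most like the mean of the 8 subunits were Mzt2 (r 0.980), Asns (0.977), Tubb2a (0.972), Atxn10 (0.968) and Apba2 (0.967), each over 12 libraries. Mzt2 encodes a protein of the gamma-tubulin complex, Asns makes asparagine, Tubb2a is a beta-tubulin and Apba2 is an adaptor of neurons. Those most like Hspa8 were Dbn1, the actin-binding protein drebrin of dendritic spines (0.932), Plec, the cytoskeletal linker plectin (0.922), and Noc2l (0.917). Those most like Hsp90ab1 were Tubb5, a beta-tubulin (0.980), Dctn1, the dynactin subunit p150 (0.965), and Eif3c, a translation initiation factor (0.964). The points share groups, depth and mitochondrial share, so these correlations describe the set of libraries.

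The genes that work with the chaperonin, Hsc70 and Hsp90 are described by lists drawn up by function. Over all tested genes, 11.1% were called higher and 10.9% lower in TRAP against WCH, and 20.6% higher and 16.5% lower in SNF against WCH. The shares were 2.29% higher and 1.79% lower in SynapTRAP against SNF, and 21.6% higher and 18.1% lower in SynapTRAP against TRAP. Among actins and tubulins, the best known substrates of the chaperonin, 10 of 13 tested genes rose in TRAP against WCH. Actb was the only actin tested, since Actg1 did not pass the filter on low counts, so this is chiefly a list of tubulins. Tubb4b and Tuba1b had the largest values, with log2 fold changes of 1.73 (adjusted p 0.000387) and 1.42 (adjusted p 0.000419), and the median was 1.21. In SNF against WCH 1 of 13 rose, Tubb2b (0.98, adjusted p 0.0261). In SynapTRAP against SNF 4 of 13 rose, Tuba1a (1.19, adjusted p 0.00683) and Tubb4b (1.03, adjusted p 0.0448) the most. In SynapTRAP against TRAP 5 of 13 fell, Tubb4a (-0.94) and Tubb4b (-0.94) the most, and Tubb2b rose (1.99). DESeq2 called 1 of 13 higher in SynapTRAP against SNF. Tubulin and actin genes have close copies, and the sharing of their reads was not measured.

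Prefoldin, which delivers actin and tubulin chains to the chaperonin, and other chaperonin cofactors were measured by 9 tested genes. In TRAP against WCH the prefoldin subunits Pfdn1 (log2 fold change 1.23) and Pfdn5 (0.73) rose and Vbp1 (-0.90), also a prefoldin subunit, fell. Pfdn1 averaged 8.09 ± 0.949 CPM in SynapTRAP, 21.8 ± 3.76 CPM in TRAP, 6.75 ± 1.95 CPM in SNF and 9.26 ± 0.848 CPM in WCH (SD, n = 3 each), so its high group was TRAP alone. Vbp1 fell (-1.07) in SNF against WCH, and in SynapTRAP against TRAP 4 of 9 fell, Pfdn1 (-1.42) and Pfdn6 (-1.0986) the most. In SynapTRAP against SNF edgeR and DESeq2 called 0 of 9, with 0 at an unadjusted p under 0.05.

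Of 20 tested genes for Hsp90 and its cochaperones, 7 rose and 1 fell in TRAP against WCH. Ahsa1, which activates the ATPase of Hsp90, rose by 1.26 (adjusted p 0.00133), Fkbp8, an immunophilin, rose by 1.24 (adjusted p 0.000634), and Cdc37l1 fell by 1.05 on the log2 scale. SNF had 5 of 20 lower than WCH, beside 16.5% of all tested genes, Chordc1 (-1.05) and Cdc37l1 (-1.01) the most, and DESeq2 called 2 of 20 lower. In SynapTRAP against SNF 2 of 20 rose, Cdc37, which brings kinases to Hsp90 (0.98, adjusted p 0.0338), and Fkbp8 (0.80, adjusted p 0.0464). In SynapTRAP against TRAP 9 of 20 fell, Ruvbl2 (-1.48) and Fkbp4 (-1.40) the most. Outside the rule for named genes, Hsp90aa1, the inducible Hsp90 of the cytosol, was added after its values were seen: it averaged 99.6 ± 32.2 CPM in SynapTRAP, 152 ± 42.5 CPM in TRAP, 70.2 ± 12.2 CPM in SNF and 89.8 ± 14.5 CPM in WCH (SD, n = 3 each), and it rose in TRAP against WCH (log2 fold change 0.76, adjusted p 0.0388).

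The other Hsp70 genes did not move as one. Of 12 tested, 1 rose and 2 fell in TRAP against WCH, namely Hsph1, an Hsp110 that exchanges nucleotide on Hsc70 (0.70), against Hspa13 (-0.81) and Hspa4l (-0.72). In SNF against WCH 3 rose and 3 fell, Hspa5, the Hsp70 of the endoplasmic reticulum (2.28), and Hspa13 (1.82) on the high side and Hspa12a (-0.95) and Hspa4l (-0.76) on the low side. Hspa5 averaged 268 ± 37.4 CPM in SynapTRAP, 84.6 ± 40.1 CPM in TRAP, 313 ± 87.4 CPM in SNF and 64.6 ± 28.4 CPM in WCH, so both groups of the band stood above both groups of cortex. In SynapTRAP against SNF only Hspa13 was called, and it fell (-0.97). In SynapTRAP against TRAP 3 rose, Hspa5 (1.66) and Hspa13 (1.66) the most, and 3 fell, Hspa12b (-2.27) and Hsph1 (-1.06) the most. Hspa12b rested on only 2 to 6 counts in SynapTRAP libraries and 11 to 29 in TRAP libraries. The stress-inducible Hspa1a, also added after its values were seen, had 1 to 53 counts per library and was not called in any comparison.

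J-domain proteins, which load substrates onto Hsc70, were measured by 16 tested genes. In TRAP against WCH 1 of 16 was called, Dnajb14, which sits in the membrane of the endoplasmic reticulum, and it fell (-1.06). In SNF against WCH 10 of 16 fell, Dnajb1 (-1.28) and Dnajc21 (-1.23) the most, and Dnajb14 rose (0.69); DESeq2 called 8 lower. The J-domain median was -0.83, beside -0.34 for the chaperonin subunits and -0.25 for all tested genes. Dnajb1 averaged 14.4 ± 2.83 CPM in SynapTRAP, 38.5 ± 14.3 CPM in TRAP, 11.9 ± 2.56 CPM in SNF and 28.9 ± 2.27 CPM in WCH (SD, n = 3 each). In SynapTRAP against TRAP 9 of 16 fell, Dnaja4 (-1.68) and Dnajb6 (-1.45) the most, and Dnajb14 rose (1.20). Dnaja4 rested on 7 to 21 counts in SynapTRAP libraries. In SynapTRAP against SNF edgeR and DESeq2 called 0 of 16, with 2 at an unadjusted p under 0.05.

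Nucleotide exchange factors and other partners of Hsp70 gave 2 higher and 1 lower of 10 in TRAP against WCH, Hspbp1 (1.1002) and Stip1 (0.72), the adaptor that joins Hsc70 to Hsp90, against Bag4 (-0.92). Bag4 (-0.98) and Bag5 (-0.94) fell in SNF against WCH, 2 of 10 beside 16.5% of all tested genes. In SynapTRAP against TRAP 4 of 10 fell, Bag5 (-1.72) and Bag2 (-1.68) the most, and Bag2 rested on 3 to 17 counts in SynapTRAP libraries. In SynapTRAP against SNF edgeR and DESeq2 called 0 of 10, with 3 at an unadjusted p under 0.05. Of 8 tested small heat shock and heat shock factor genes, Hsbp1, a binding partner of heat shock factor, rose in TRAP against WCH (0.74). It fell in SynapTRAP against TRAP (-1.01), where 3 of 8 fell, among them Hspb3 (-1.78), and Hspb8 rose (1.82). Hspb3 rested on 1 to 12 counts in SynapTRAP libraries. In SNF against WCH and in SynapTRAP against SNF edgeR called 0 of 8, with 2 and 1 at an unadjusted p under 0.05, and DESeq2 called 1 higher and 0.

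Of 11 mitochondrial chaperones and proteases, Lonp1 (1.35) and Clpp (1.07) rose in TRAP against WCH. Grpel2, with 6 to 16 counts in SNF libraries, and Clpx fell in SNF against WCH. Hspa9, the Hsp70 of mitochondria, rose in SynapTRAP against SNF (0.92, adjusted p 0.0384). In SynapTRAP against TRAP 5 of 11 fell, Grpel1 (-1.39) and Clpp (-1.19) the most. In the difference between both pull-down effects edgeR called no gene of any of these lists; an unadjusted p under 0.05 was found for 1 of 13 actins and tubulins, 2 of 9 prefoldin and cofactor genes, 4 of 20 Hsp90 genes, 1 of 12 Hsp70 genes, 0 of 16 J-domain genes, 2 of 10 exchange factors, 3 of 8 small heat shock genes and 3 of 11 mitochondrial genes. DESeq2 called 1 of these, a mitochondrial gene.

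**Figure D4:**
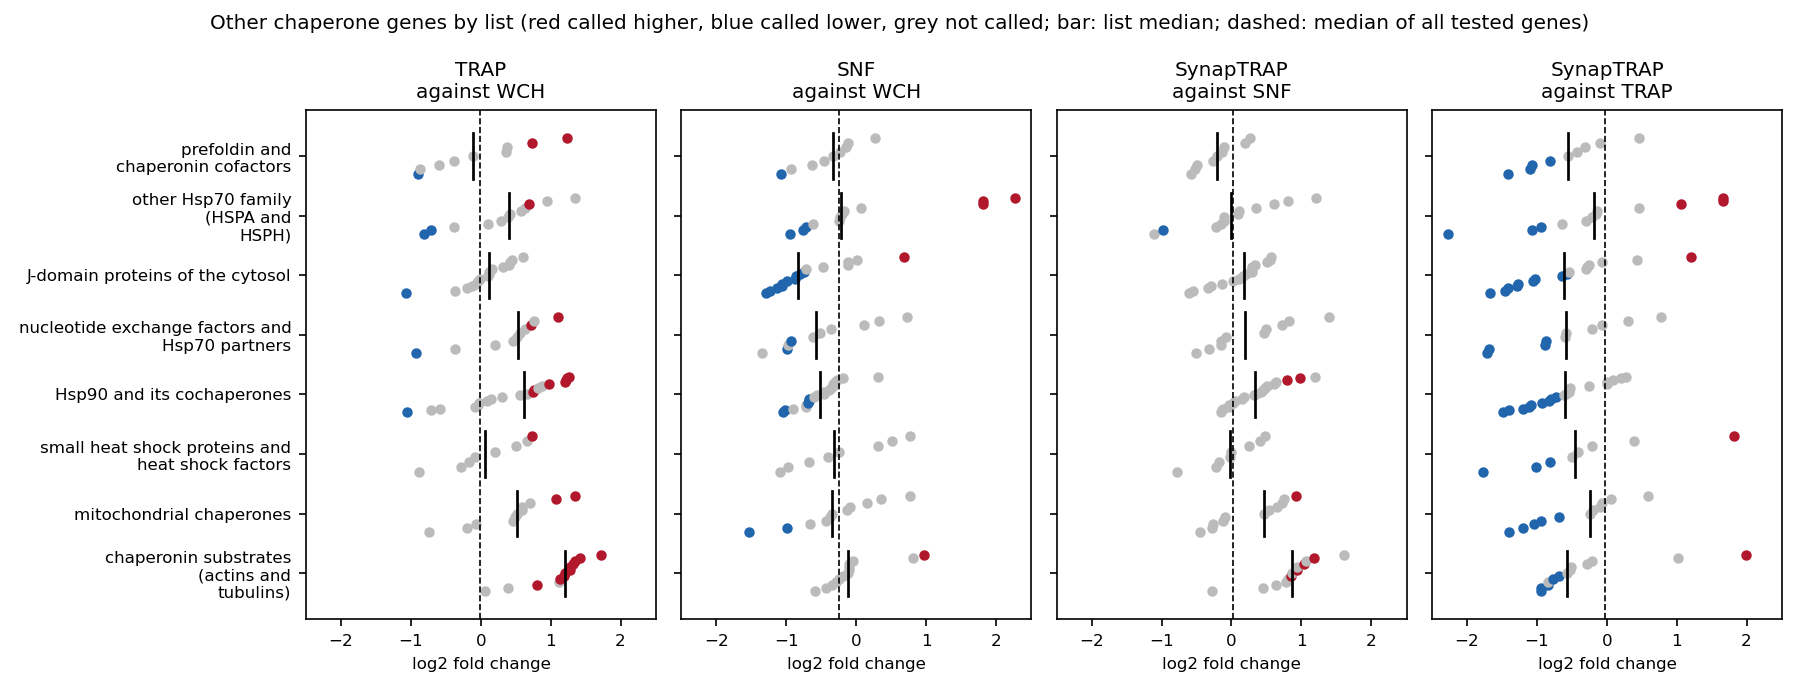
Log2 fold change of every tested gene of the 8 chaperone lists in the 4 comparisons between groups, with genes called higher in red, called lower in blue and not called in grey; the bar is the median of the list and the dashed line the median of all tested genes. In TRAP against WCH, 10 of 13 actins and tubulins (Actb being the only actin) and 7 of 20 Hsp90 genes rose, beside 11.1% of all tested genes. In SNF against WCH 10 of 16 J-domain genes fell, beside 16.5%.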

How the data were processed

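RNA sequencing counts of 12 mouse cortex libraries, 3 in each of 4 groups, were used. The tools named by the submitters' processing notes are Bowtie2, STAR, HTSeq and edgeR; no version, build, annotation or strand setting is given in the sources used here. The authors deposited raw integer counts per gene and library, with 5 summary lines that held 19.3% to 58.3% of reads and were left out. A further 3 deposited tables hold, per the file headers, log2 fold changes, likelihood ratio scores and p-values of the authors' own tests; none lists a member, and they were not used.

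Symbols and coordinates came from GENCODE M21 (GRCm38), which matched 28758 of 29879 identifiers. All 12 libraries were fitted by group means in edgeR 4.0.16 under R 4.3.3, with TMM scaling, the default expression filter (13404 genes kept) and the robust quasi-likelihood test for 5 contrasts. The steps were tested on simulated data. CPM and, with a prior count of 2, log2 CPM for correlations were computed from the same scaling. Levels per length used the union of exons. Alternatives were RLE scaling, total counts, the mitochondrial genome left out, no filter, a replicate block, DESeq2 1.42.0, only the groups compared, and each library left out in turn. In every comparison all 10 members are given, with at most the 2 called genes of largest change in each direction per list. The members and lists were chosen by name and function, with earlier results of these data known. Lists of endothelial and oligodendrocyte precursor markers were also computed: in TRAP against WCH 0 of 10 and 2 of 6 were called by edgeR, the 2 lower, with 2 and 4 at an unadjusted p under 0.05, and DESeq2 called 0 and 3.

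The deviations of same-numbered libraries from their group means correlated at 0.218, 0.293 and 0.378 between SynapTRAP and SNF and at 0.104, 0.144 and 0.106 between SynapTRAP and TRAP, above 0.1 in every pair. The fit was made without the number, and the replicate block was an alternative. Any pairing comes from the data, since the labels do not say what a number marks.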

Additional observations from a re-analysis of the deposited data

How the results depend on the processing

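Over the 10 members, the 5 comparisons and all settings, 605 of 700 alternative values kept their direction and their side of the threshold, 32 newly passed it, 26 no longer passed it and 37 turned sign. None turned in TRAP against WCH or in SynapTRAP against TRAP. With total gene counts as library size, the median of all tested genes moved to 0.56 in TRAP against WCH, -2.60 in SNF against WCH, 1.98 in SynapTRAP against SNF, -0.9998 in SynapTRAP against TRAP and 1.46 in the difference between both pull-down effects; relative to it the subunit medians were 0.64, -0.07, 0.60, -0.33 and -0.10. With that setting 10 members were lower in SNF (11452 genes called in all) and 10 were higher in SynapTRAP against SNF (12177). In SynapTRAP against TRAP 10 were lower (6997 called, 6403 of them lower), and 5 were higher in the difference (6329). Hspa8 and Hsp90ab1 turned to -2.28 each in SNF against WCH. In the difference Cct3 (1.17), Cct5 (1.24), Cct6a (0.69), Cct7 (0.88), Hspa8 (0.98) and Hsp90ab1 (1.22) turned.

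With RLE scaling the median of all tested genes in SNF against WCH was -0.12. With it 0 members were lower in SNF (4381 genes called in all) and 0 higher in SynapTRAP against SNF (551). With DESeq2 0 members were lower in SNF (4556), 858 genes were called in SynapTRAP against SNF and 474 in the difference. With RLE and DESeq2 in turn, Cct7 was at 0.013 and 0.013 in SNF against WCH, Cct6a at -0.083 and -0.083 in SynapTRAP against SNF, and Cct2 at -0.063 and -0.062 and Cct4 at -0.046 and -0.045 in the difference, all of opposite sign to the values reported. Of the genes called, 55.5% were higher in SNF against WCH (67.7% with RLE, 67.2% with DESeq2), 56.1% in SynapTRAP against SNF (33.6% and 35.0%) and 58.6% in the difference (33.6% and 31.2%). With no filter 2 members were lower in SynapTRAP against TRAP (5421 genes called in all), and 887 genes were called in SynapTRAP against SNF and 512 in the difference. With only the compared groups, 0 members were higher in SynapTRAP against SNF (261 genes in all) and 1 was lower in SynapTRAP against TRAP (3884). In that setting Cct7 turned to 0.00701 in SNF against WCH and Cct6a to -0.032 in SynapTRAP against SNF. The replicate block changed the call of no member, and called 834 genes, against 547 without it, in SynapTRAP against SNF and 366, against 116, in the difference. Same-numbered libraries deviated at r 0.036, 0.063 and -0.015 between TRAP and WCH and 0.165, 0.077 and 0.065 between SNF and WCH, and 12 of 12 libraries correlated best with their own number, a hint from the data, not from the design.

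Leaving out a library gave 4 to 6 members higher in TRAP against WCH (1484 to 2835 genes in all), 0 to 1 lower in SNF against WCH (3340 to 4640), 0 to 3 higher in SynapTRAP against SNF (55 to 952), 2 to 4 lower in SynapTRAP against TRAP (4365 to 5613) and 0 in the difference (0 to 444). Values that turned in some of these fits ran from -0.28 to 0.012 (Cct3), -0.46 to 0.034 (Cct6a), -0.21 to 0.027 (Cct7), -0.10 to 0.23 (Hspa8) and -0.13 to 0.20 (Hsp90ab1) in SNF against WCH, from -0.25 to 0.25 (Cct6a) in SynapTRAP against SNF, and from -0.12 to 0.16 (Cct2) and -0.12 to 0.21 (Cct4) in the difference. The causes of these changes were not tested, and the 35 to 216 counts of most members in SNF limit the comparisons that use it.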

Other observations

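The lincRNA Gm26825, whose sequence occurs in the Hspa8 transcript, had 4 to 142 counts per library, or 1.52% to 14.4% of the Hspa8 counts.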
